A study of Rattus norvegicus with 66 samples.

Results

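A set of 8 genes of steroid signalling other than the classical estrogen receptors were followed in the developing rat hippocampus: the nuclear progesterone receptor (Pgr), the membrane estrogen receptor (Gper1), the 3 estrogen-related receptors (Esrra, Esrrb and Esrrg), the cholesterol carrier Star, aromatase (Cyp19a1) and steroid 5α-reductase type 1 (Srd5a1). They were taken by their gene symbols from the 37777 genes of the count tables, and each symbol had 1 entry, so that 8 of 37777 genes are described. All 8 were detected. RNA of the dorsal hippocampus, with a small strip of the neighbouring neocortex, came from 64 Long Evans pups (41 males and 23 females) on PND 6 and was sequenced in 66 libraries of 10644138 to 86206550 counts each.

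The dams, not the pups, received the chemicals, and several litters gave more than 1 pup. Feeding controls (CONF, 4 males and 5 females) had soy-free chow with vehicle, and injection controls (CONSC, 5 males and 5 females) had dams injected subcutaneously with vehicle, which is given as saline in the labels and as DMSO in the methods. Aroclor 1254, a mixture of polychlorinated biphenyls, was fed at 0.5 mg/kg (Aro0.5, 4 males) or 5 mg/kg (Aro5, 6 males and 5 females). Bisphenol A, a plasticizer, was fed at 0.5 mg/kg (BPA0.5, 4 males) or 5 mg/kg (BPA5, 7 males and 4 females), and both feeding treatments ran from before mating into lactation. Chlorpyrifos, an organophosphate insecticide, was injected at 1 mg/kg (CPF1, 4 males) or 3 mg/kg (CPF3, 7 males and 4 females) during pregnancy and again after birth. No female of a low dose was analysed here. Following the study, both kinds of control pups of a sex formed 1 group.

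Steroid hormones reach the hippocampus from the gonads and adrenals and are also made within it. Synthesis begins when Star moves cholesterol to the inner mitochondrial membrane. Further on, Cyp19a1 turns androgens into estrogens, and Srd5a1 reduces progesterone and testosterone on the way to neurosteroids that act on GABA-A receptors. The hormones act through nuclear receptors such as Pgr, a textbook target of estrogen receptors, and through membrane receptors such as Gper1. The estrogen-related receptors resemble estrogen receptors in sequence but do not bind estradiol. They switch on genes of mitochondrial energy metabolism together with the PGC-1 coactivators, and bisphenol A is known to bind Esrrg.

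Library titles came in several spellings, which were pooled here into forms A and B, and the form went with the groups. In males the form was read from the last letter of the title, a capital in form A and a small letter in form B. In control females it was read from how the group and pup names were joined. Form B holds several spellings in each sex. Of the control male libraries 9 of 10 had form A, as had all 12 low-dose libraries, whereas all 20 high-dose male libraries had form B. Among control females, form A was on 5 libraries and form B on 6. What the spellings stand for is not stated, and in males the form cannot be told apart from the high dose. By the pup names, a library of each form was made from a male, N2-2y, and from a female, N4-3x, both CONF. The labels give different times of dissection for the 2 libraries of N4-3x, which were taken as 1 pup by name. In the female pair, 0.0576% of 12162 well-covered genes differed by 2-fold or more, but in the male pair 2.84% did. Esrra belonged to these: the library of form A of N2-2y held 127 Esrra counts, or 7.71 counts per 1000000 counts (CPM), and that of form B held 348, or 19.6 CPM. The ratio of 2.54 had an exact 95% interval of 2.07 to 3.14, which covers counting error only. In N4-3x, Esrra was at 30.3 and 27.0 CPM. The other genes of the 8 with over 50 counts in both N2-2y libraries differed less, with Esrrg at 59.2 and 48.6 CPM (ratio 0.821, 0.748 to 0.900), Srd5a1 at 22.2 and 24.7 CPM (1.11, 0.967 to 1.28) and Pgr at 4.55 and 4.11 CPM (0.903, 0.646 to 1.26). A value of 1 pup, and of Esrra above all, can thus depend on the library.

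Markers of hippocampal neurons were present in every pup, summing to between 134 and 388 CPM over 5 genes. So were markers of neighbouring tissue: 5 neocortical genes summed to between 81.1 and 756 CPM, 5 thalamic genes to between 108 and 1144 CPM and 5 choroid plexus genes to between 751 and 4487 CPM, mostly Ttr. Hypothalamic markers were at 0.568 to 25.7 CPM in sum. The libraries are of bulk tissue, in which fewer cells of a type and less RNA per cell cannot be told apart.

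The starts of transcription of 2 genes, Esrra and Srd5a1, are shown. Among the 8 genes these had the highest correlation over all pups, though not for deviations from group means (described further on). Both were lower in control males than in control females in the main fit. RefSeq sequences of the rat build GRCr8, from 250 bases before to 50 after a start, were at hand for 5 of the 8 genes, Pgr, Esrra, Esrrb, Esrrg (4 starts) and Srd5a1. Capitals mark 2 motifs read on both strands, the GC box GGGCGG, a binding motif of Sp factors, and the CCAAT box, a binding motif of NF-Y, and capitals that touch can hold overlapping matches.
Esrra, chr1:213543256-213543555, minus strand: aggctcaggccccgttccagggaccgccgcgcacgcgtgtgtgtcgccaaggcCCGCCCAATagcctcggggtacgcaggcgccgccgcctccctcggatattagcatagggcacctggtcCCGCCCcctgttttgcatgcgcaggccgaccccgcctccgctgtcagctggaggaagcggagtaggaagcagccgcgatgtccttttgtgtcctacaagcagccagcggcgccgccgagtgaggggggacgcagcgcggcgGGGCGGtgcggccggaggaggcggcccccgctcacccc
Srd5a1, chr1:35514664-35514963, plus strand: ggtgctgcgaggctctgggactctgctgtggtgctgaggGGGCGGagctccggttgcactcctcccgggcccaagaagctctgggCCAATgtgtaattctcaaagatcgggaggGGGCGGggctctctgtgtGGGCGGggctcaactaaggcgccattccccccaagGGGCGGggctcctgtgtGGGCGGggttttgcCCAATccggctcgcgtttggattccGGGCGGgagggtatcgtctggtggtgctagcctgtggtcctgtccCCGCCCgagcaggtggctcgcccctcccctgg

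The Esrra window held 3 GC boxes and 1 CCAAT box, and the Srd5a1 window 7 and 2. Of all 33469 windows of this length, 33.1% had at least 1 GC box and 37.5% at least 1 CCAAT box. G and C made up 72% of the Esrra window and 67.7% of the Srd5a1 window, and 94.4% and 88.9% of all windows had as little or less. AGGTCA, the half-site read by estrogen receptors and estrogen-related receptors, was found in 1 of the 8 windows, at 1 of the starts of Esrrg, and in 16.2% of all windows. The longer TCAAGGTCA of the estrogen-related receptors stood in none of the 8 and in 0.433% of all windows. GGTCANNNTGACC, the palindrome bound by estrogen receptors, was likewise in none of the 8 and in 0.0269% of all windows. These counts say only which letters the windows hold.

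Levels of the 8 genes over the 13 groups are given first, in CPM per pup. They are compared between groups only, since a gene's counts also depend on the length of its transcript. The group with the highest mean exceeded the one with the lowest by 2.27-fold for Pgr, 1.55-fold for Gper1, 2.27-fold for Esrra, 2.51-fold for Esrrb, 1.39-fold for Esrrg, 1.92-fold for Star, 2.02-fold for Cyp19a1 and 1.25-fold for Srd5a1. When the 13 means of a gene were put in order, the ranges of mean ± SD of neighbours overlapped in 12 of 12 pairs for each of the 8 genes. Neighbours in such an order are close by construction, so this does not show whether groups further apart overlap. For Esrra, every male group mean (13.6 to 22.8 CPM) lay below every female group mean (24.4 to 30.9 CPM).

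**Figure D1:**
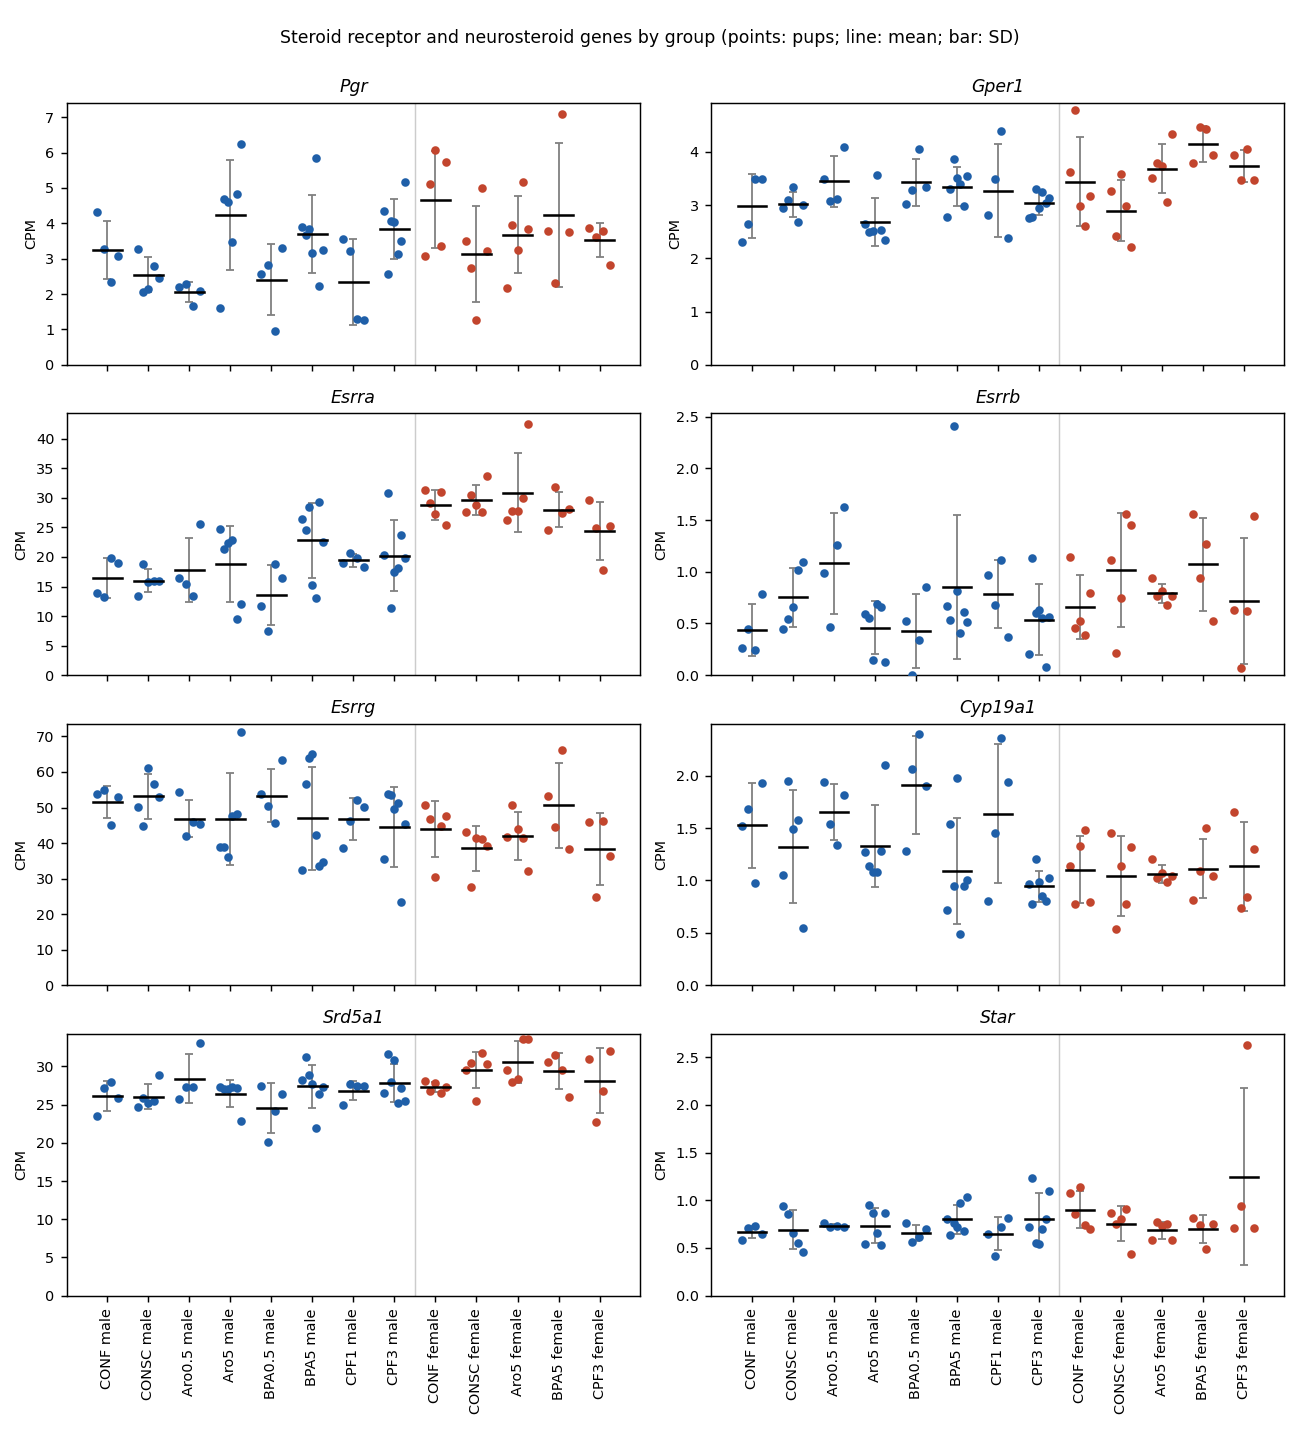
Counts per 1000000 counts (CPM, y axes, linear, from 0) of the 8 genes in each of 64 pups, by group (x axis, 8 male groups in blue and 5 female groups in red). Points are pups, black lines group means and grey bars SD. Esrra is the gene in which control females (25.5 to 33.6 CPM) and control males (13.2 to 19.8 CPM) do not overlap.

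The first question was whether maternal exposure to the chemicals changed the 8 genes in male hippocampus at the high doses. None of them passed the test. With Aro5, 0 of 8 genes had an adjusted p under 0.05 in edgeR (quasi-likelihood, p adjusted after Benjamini and Hochberg over 16393 genes), against 0.195% of all genes. With BPA5 it was 0 of 8 against 0.189%, and with CPF3 0 of 8 against 0.159%. At an unadjusted p under 0.05 there was 1 gene in each of these comparisons, Pgr with Aro5, Esrra with BPA5 and Cyp19a1 with CPF3, where 11.8%, 9.1% and 12.6% of all genes reached that level. DESeq2 also called 0 of 8 in each, with 1, 1 and 2 at an unadjusted p under 0.05.

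Pgr had its highest male mean with Aro5. The 6 Aro5 males were at 1.62, 3.48, 4.60, 4.70, 4.84 and 6.24 CPM, whereas the 9 control males ranged from 2.07 to 4.33 CPM with a median of 2.78. In all, 4 Aro5 pups lay above every control male and 1, the pup at 1.62, lay below all of them. Mean levels were 4.25 ± 1.56 CPM (SD, n = 6) and 2.86 ± 0.715 CPM (SD, n = 9), and the fitted log2 fold change was 0.56 (SE 0.21, edgeR adjusted p = 0.292). In BPA5 males the change of Pgr was 0.35 (SE 0.21) and in CPF3 males 0.41 (SE 0.21). All 3 share the 9 control males. With the form of the title as a covariate and libraries counted singly, the Pgr value was 0.06 (SE 0.44) for Aro5. It was below 0 for BPA5 (-0.15, SE 0.43) and CPF3 (-0.09, SE 0.43). Only 1 control male library, from N2-2y, shares form B with the high-dose males. Such a fit therefore rests on that library and cannot separate form from dose.

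The Aro5 male with the lowest level was dissected in the afternoon. For most pups dissection fell within a window that opens at 10.30 h and closes at 13.20 h, and for 11 of 64, this male included, it did not. Within that window the Aro5 value of Pgr was 0.79 (SE 0.23, edgeR adjusted p = 0.0462), and 4.96% of all genes passed in the same fit. The window also leaves out the Aro5 male 117-4y and some control males, and it keeps the littermates 120-1y (4.84 CPM) and 120-2y (6.24 CPM). Over all times, with 1 pup per litter and sex, the value was 0.43 (SE 0.22, edgeR adjusted p = 0.495). Neocortical markers moved with Pgr. Their sum was between 394 and 639 CPM in Aro5 males and between 205 and 510 CPM in control males, 4 of the 5 genes were higher at an unadjusted p under 0.05 and 0 of 5 passed the adjusted threshold. Over the 64 pups the Spearman correlation of Pgr with this sum was 0.62, and 0.54 for deviations from the 13 group means. The part of neocortical tissue in the Pgr value was not tested.

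Esrra, the estrogen-related receptor that responds to PGC-1 in energy-demanding tissue, had its highest male mean with BPA5. The 7 BPA5 males ranged from 13.1 to 29.3 CPM with a median of 24.6, against 13.2 to 19.8 CPM with a median of 15.9 in the 9 control males. Of these, 5 lay above the control range and 1 just below it. The log2 fold change was 0.51 (SE 0.19, edgeR adjusted p = 0.478), from means of 22.8 ± 6.37 CPM (SD, n = 7) and 16.2 ± 2.5 CPM (SD, n = 9). With the title form as a covariate, a fit that rests on the same control library of N2-2y, it was 0.23 (SE 0.45). The sum of 3 endothelial markers, to which Esrra was close over all pups (given further on), had a median of 86.2 CPM in BPA5 males (63.9 to 91.7) and of 73.1 CPM in control males (58.7 to 79.0), with 0 of 3 genes at an unadjusted p under 0.05, and its part in the Esrra value was not tested. Aro5 males split into 4 pups between 21.3 and 24.7 CPM and 2 pups at 9.52 and 12.0 CPM, and the latter 2 came from 1 litter. A female of the same litter had 42.6 CPM, the highest Esrra level of the 64 pups. In CPF3 males the range was 11.4 to 30.9 CPM. The spread within each of the high-dose male groups (SD 6.01 to 6.37 CPM) was thus wider than among control males, and the 2.54-fold gap between the 2 libraries of N2-2y was wider than any of these fitted changes.

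Cyp19a1, the aromatase gene, was low in all pups, with 6 to 112 counts each. In CPF3 males it lay between 0.774 and 1.2 CPM with a median of 0.971, and in control males between 0.546 and 1.95 CPM with a median of 1.52. All CPF3 males lay within the control range, in its lower part. The log2 fold change was -0.58 (SE 0.24, edgeR adjusted p = 0.338), from 0.944 ± 0.148 CPM (SD, n = 7) and 1.41 ± 0.466 CPM (SD, n = 9). With BPA5 it was -0.33 (SE 0.23) and with Aro5 -0.11 (SE 0.23). Interneuron markers had a median sum of 218 CPM in CPF3 males and of 331 CPM in control males, and striatal markers one of 125 and 322 CPM. In each list 3 of 5 genes were lower at an unadjusted p under 0.05 and 0 of 5 passed the adjusted threshold. Neocortical markers had a median sum of 421 CPM in CPF3 males and of 317 CPM in control males. Of these, 3 of 5 genes were higher at an unadjusted p under 0.05 and 0 of 5 passed the adjusted threshold. Over 64 pups the Spearman correlation of Cyp19a1 was -0.46 with the neocortical sum, 0.38 with the interneuron sum and 0.23 with the striatal sum. For deviations from group means it was -0.37, 0.31 and 0.11. The part of these markers in the Cyp19a1 value was not tested.

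For the remaining genes the 95% intervals included 0 in each high-dose male comparison. Esrrg, the receptor known to bind bisphenol A, had 46.9 ± 14.5 CPM (SD, n = 7) in BPA5 males and 52.5 ± 5.29 CPM (SD, n = 9) in control males, a log2 fold change of -0.15 (SE 0.17, edgeR adjusted p = 0.778). Its 95% interval ran from -0.48 to 0.18. BPA5 males fell between 32.5 and 64.9 CPM, on either side of the control males at 44.7 to 61.3 CPM. Over the 3 high-dose treatments in males, log2 fold changes were -0.23 to -0.15 for Esrrg, -0.13 to 0.17 for Gper1, -0.25 to 0.62 for Esrrb, 0.11 to 0.27 for Star and 0.04 to 0.11 for Srd5a1. Srd5a1 had the narrowest intervals, from -0.10 to 0.24 at their widest, and Esrrb the widest, from -1.17 to 1.45, as it had no more than 76 counts in any high-dose male. The Esrrb value of 0.62, with BPA5, was 0.07 without 1 pup, 81-1y, at 2.41 CPM. With the title form as a covariate, Star was at 0.90, 1.02 and 1.06 (SE 0.46 each) with Aro5, BPA5 and CPF3. These values rest on the control library of form B from N2-2y, which held 7 Star counts.

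**Figure D2:**
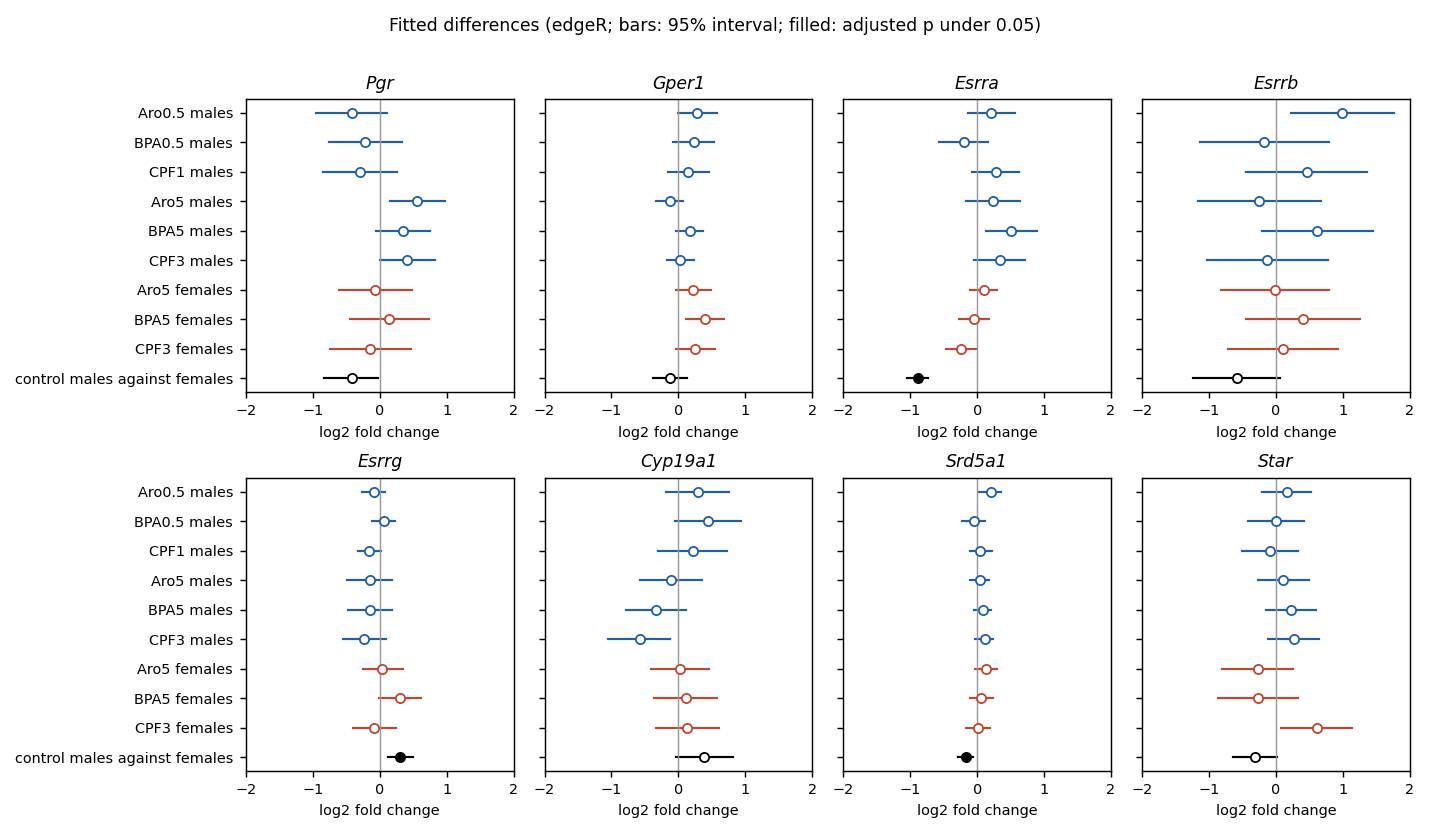
Fitted log2 fold changes (x axes) of the 8 genes against combined controls of the same sex in 9 treatment comparisons, and of control males against control females (bottom row, black). Points are edgeR estimates, bars are 95% intervals (± 1.96 SE), blue marks males and red marks females, and filled points passed an adjusted p under 0.05. Only the bottom row has filled points, for Esrra (-0.89), Esrrg (0.31) and Srd5a1 (-0.17).

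High-dose treatments were also set against each other in males, since these 20 libraries share 1 form of title. Between Aro5 and BPA5, between Aro5 and CPF3 and between BPA5 and CPF3, edgeR called 0 of 8 genes, and 0% of 16393 genes passed in each. At an unadjusted p under 0.05 there were 1, 0 and 0 of the 8, and DESeq2 called 0 of 8 in each. The 1 gene was Gper1, which couples estrogens to rapid signalling at membranes. Aro5 males were at 2.35, 2.49, 2.51, 2.54, 2.64 and 3.57 CPM, and BPA5 males ranged from 2.78 to 3.87 CPM with a median of 3.41. All Aro5 pups but the last lay below every BPA5 pup. The log2 difference of Aro5 against BPA5 was -0.30 (SE 0.11, edgeR adjusted p = 0.818). Neocortical markers had a median sum of 495 CPM in Aro5 males (394 to 639) and of 325 CPM in BPA5 males (227 to 689). Of the 5 genes, 1 was higher in Aro5 at an unadjusted p under 0.05. Over 64 pups the Spearman correlation of Gper1 with that sum was -0.43 (-0.42 for deviations from group means). The part of neocortical tissue in the Gper1 value was not tested. For the other genes the differences between any pair of high-dose groups lay between -0.88 (Aro5 against BPA5) and 0.75 (BPA5 against CPF3), both of Esrrb. Without the BPA5 pup 81-1y these were -0.32 and 0.19.

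The low doses in males were the second question, and here libraries of controls and treated pups mostly share form A. Again 0 of 8 genes were called by edgeR in Aro0.5 (background 0.124% of 16139 genes), in BPA0.5 (0.0434%) and in CPF1 (0%), with 2, 0 and 0 at an unadjusted p under 0.05. DESeq2 called 0 with the same 2, 0 and 0, and gave an adjusted p to 6 of the 8 genes in Aro0.5. The 2 genes in Aro0.5 males were Esrrb and Srd5a1.

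Esrrb, known as a factor of stem cells and the inner ear, had 13 to 52 counts in Aro0.5 males, at 0.465, 0.986, 1.26 and 1.62 CPM, and 3 to 12 counts in control males, at 0.244 to 1.09 CPM with a median of 0.547. Of the 4 treated pups, 2 lay above the control range. The log2 fold change of 0.99 (SE 0.39) had an edgeR adjusted p of 0.201. Thalamic markers summed to a median of 986 CPM in these Aro0.5 males and of 528 CPM in control males, with highest values of 1076 and 1127 CPM, and over 64 pups the Spearman correlation of Esrrb with that sum was 0.53 (0.57 for deviations from group means). Whether thalamic tissue took part in the Esrrb value was not tested. One BPA0.5 male had 0 Esrrb counts, which allows a level of up to 0.282 CPM.

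Srd5a1 in Aro0.5 males was at 25.8, 27.3, 27.4 and 33.1 CPM, and control males lay between 23.5 and 28.8 CPM. The change of 0.20 (SE 0.08, edgeR adjusted p = 0.22) fell to 0.09 without the pup at 33.1 CPM, the only 1 outside the control range. The thalamic sums given for Esrrb hold here too, with 3 of 5 genes higher at an unadjusted p under 0.05. Striatal markers had a median sum of 145 CPM in Aro0.5 males and of 322 CPM in control males, with 5 of 5 genes lower at that level, and none of these genes passed the adjusted threshold. The part of such tissue in the Srd5a1 value was not tested. Pgr had lower mean levels in the 3 low-dose groups (2.06 to 2.41 CPM) than in control males (2.86 CPM), with log2 fold changes of -0.42 to -0.22 and SE of 0.27 to 0.28. Without 1 BPA0.5 male, 73-4y, the value for BPA0.5 was 0.03. The sum of neocortical markers was lower there as well, with medians of 178 CPM (Aro0.5), 259 CPM (BPA0.5) and 266 CPM (CPF1) against 317 CPM in control males. Of the 5 genes, 2, 1 and 0 were lower at an unadjusted p under 0.05, and the part of neocortical tissue in these Pgr values was not tested. The high-dose values of Pgr were of the opposite sign, and the form of the title differed between the 2 sets of libraries. No test of dose was made across them.

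In female hippocampus the high-dose treatments called 0 of 8 genes by edgeR, with Aro5, BPA5 and CPF3 alike, where 0% of 16992 genes passed in each. At an unadjusted p under 0.05 there were 0, 1 and 2 genes, and DESeq2 called 0 of 8 in each with the same 0, 1 and 2. Gper1 in BPA5 females was at 3.78, 3.93, 4.42 and 4.46 CPM, in the upper part of the control range of 2.20 to 4.79 CPM. The log2 fold change was 0.40 (SE 0.15, edgeR adjusted p = 0.925). Esrra in CPF3 females was at 17.7, 25, 25.3 and 29.7 CPM against 25.5 to 33.6 CPM in control females, so that 3 of 4 lay below all controls, and the change was -0.24 (SE 0.11, edgeR adjusted p = 0.55). Without the pup at 17.7 CPM, 43-3x, it was -0.12, as it was within the time window.

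Star had an isolated high value in CPF3 females. CPF3 females were at 0.708, 0.710, 0.935 and 2.63 CPM, and the 10 control females ranged from 0.441 to 1.14 CPM. The pup at 2.63 CPM, with 59 counts, stood alone above the controls. Its log2 fold change of 0.61 (SE 0.27, edgeR adjusted p = 0.538) became -0.09 (SE 0.22) without that pup, which had also been dissected before the window opened. Over the females, Pgr changed by -0.14 to 0.14, Esrrg by -0.08 to 0.31, Cyp19a1 by 0.02 to 0.13, Srd5a1 by 0.02 to 0.13 and Esrrb by -0.01 to 0.41 on the log2 scale, each with a 95% interval that includes 0.

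Whether males and females responded differently was tested by the interaction of sex and treatment. No gene of the 8 passed by edgeR, where 0.0984% of 17282 genes passed for Aro5, 0.0405% for BPA5 and 0.0463% for CPF3. The counts at an unadjusted p under 0.05 were 0, 1 and 2, and DESeq2 gave 0 calls and the same counts. These were Esrra for BPA5 (0.55, SE 0.25, edgeR adjusted p = 1), Esrra for CPF3 (0.59, SE 0.25, edgeR adjusted p = 0.872) and Cyp19a1 for CPF3 (-0.70, SE 0.34, edgeR adjusted p = 0.872). Positive values mean a larger log2 change in males than in females. In males the high-dose and nearly all control libraries differ in title form, and the form of high-dose female titles could not be read. The part of title form in these interactions was not tested.

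Control males and females differed at 3 of the 8 genes by edgeR, Esrra, Srd5a1 and Esrrg, and DESeq2 called 3 as well. In this comparison 30.2% of 15763 genes were called, and the count of the 8 is read against that share. Median counts per library were 14015105 (CONF) and 16449170 (CONSC) in control males. In control females they were 26576991 (CONF) and 28071415 (CONSC). The study reports that the female assay was run again and does not say whether both sexes were sequenced together. The part of depth or assay in the sex differences was not tested. Esrra was lower in males: the 9 control males lay between 13.2 and 19.8 CPM (16.2 ± 2.5, SD) and the 10 control females between 25.5 and 33.6 CPM (29.3 ± 2.41, SD), without overlap. The log2 difference of males against females was -0.89 (SE 0.08, edgeR adjusted p = 3.55e-08), or 53.8% of the female level. In 7 of 7 control litters that gave both sexes the female level was higher. Srd5a1 was lower in males by a small margin, with 26.1 ± 1.68 CPM (SD, n = 9) against 28.4 ± 2.03 CPM (SD, n = 10) and a log2 difference of -0.17 (SE 0.06, edgeR adjusted p = 0.0279). Esrrg was higher in males, with 52.5 ± 5.29 against 41.3 ± 7.34 CPM and a log2 difference of 0.31 (SE 0.09, edgeR adjusted p = 0.0132).

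The form of the title bears on these values, but the forms rest on different features of the title in males and females. Fits by form therefore do not hold the spelling constant between the sexes. Within form A alone, Esrra lay between 7.71 and 19.8 CPM in 9 male and between 27.6 and 31.3 CPM in 5 female control libraries, and the log2 difference was -0.96 (edgeR adjusted p = 0.00076, with 10.9% of all genes called). The 1 male control library of form B had 19.6 CPM, under the lowest of 6 female libraries of form B at 25.5 CPM. With form as a covariate the value was -0.88 (edgeR adjusted p = 2.83e-05, with 17.8% of all genes called). Esrrg and Srd5a1 missed the threshold both in form A alone (0.32 and -0.13, edgeR adjusted p = 0.0877 and 0.323) and with the covariate (0.28 and -0.15, edgeR adjusted p = 0.0567 and 0.0963). The sum of 3 endothelial markers, mostly Cldn5, moved with Esrra. This sum was between 58.7 and 79.0 CPM in control males and between 83.9 and 107 CPM in control females. Cldn5 alone was at 45.9 ± 6.57 CPM (SD, n = 9) in control males and 63.8 ± 7.3 CPM (SD, n = 10) in control females. Of the 3, Cldn5 was at -0.52 (SE 0.08, edgeR adjusted p = 5.14e-05), Pecam1 at -0.01 (SE 0.07) and Flt1 at -0.10 (SE 0.11) on the log2 scale. In the N2-2y pair this sum was 59.3 CPM in the library of form A and 76.4 CPM in that of form B, beside the Esrra levels of 7.71 and 19.6 CPM. The part of these differences between libraries in the sex difference was not tested.

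**Figure D3:**
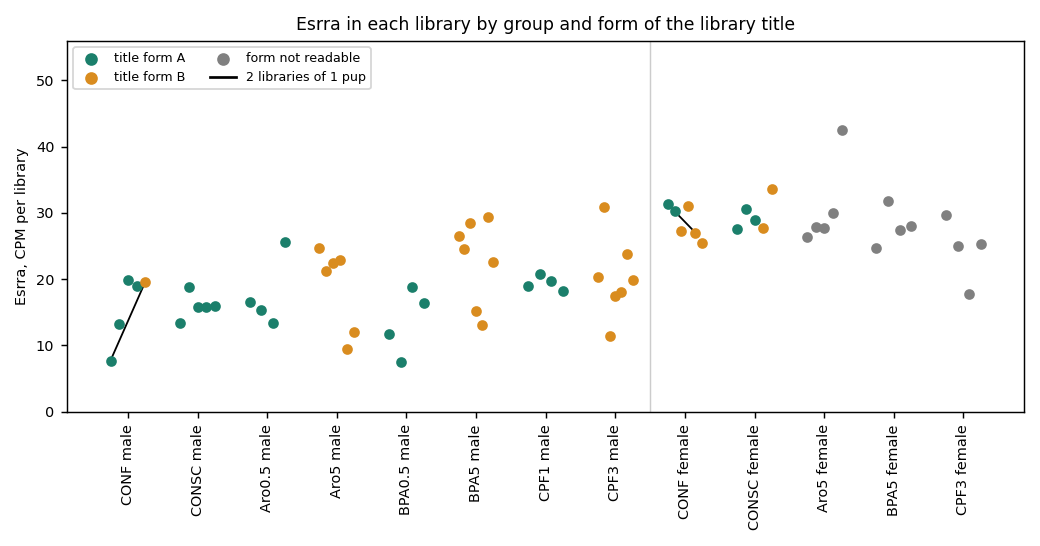
Esrra in counts per 1000000 counts (y axis, linear, from 0) in each of 66 libraries by group (x axis), coloured by the form of the library title. Grey points are libraries of high-dose females, whose form could not be read. A black line joins the 2 libraries of a pup: 7.71 and 19.6 CPM in the male CONF pup, and 30.3 and 27.0 CPM in the female CONF pup.

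The same contrast was made among high-dose pups, averaged over Aro5, BPA5 and CPF3, after the control values had been seen. Here 3 of 8 genes were called where 43% of 17282 genes were. Esrra was again lower in males (-0.45, SE 0.11, edgeR adjusted p = 0.00113), as was Srd5a1 (-0.14, SE 0.05, edgeR adjusted p = 0.0176). Gper1 was lower in high-dose males (-0.38, SE 0.08, edgeR adjusted p = 6.66e-05), whereas the control difference of Gper1 was -0.12 (SE 0.13, edgeR adjusted p = 0.508). Esrrg was at 0.05 (SE 0.11, edgeR adjusted p = 0.728). Of the 18 litters of the series with both sexes, which include the 7 control litters given above, the female Esrra level was higher in 16.

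The 5 genes that missed the threshold in controls had wider intervals. Log2 differences of males against females were -0.42 (SE 0.21) for Pgr, -0.12 (SE 0.13) for Gper1, -0.58 (SE 0.33) for Esrrb, -0.31 (SE 0.17) for Star and 0.38 (SE 0.22) for Cyp19a1. Some of these turned in sign: Gper1 was at 0.01 without the pups with 2 libraries, and in high-dose pups Pgr was at 0.01 and Cyp19a1 at -0.03. Aromatase lay at 0.546 to 1.95 CPM in control males and at 0.534 to 1.48 CPM in control females, so that the sexes overlapped over most of their range. The same held for Star, with 0.455 to 0.942 CPM in males and 0.441 to 1.14 CPM in females.

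CONF and CONSC pups were compared to see whether the 2 kinds of control differ for these genes. In males 0 of 6 tested genes were called by edgeR (background 0.013% of 15387), Esrrb and Star being too low there, and in females 0 of 8 (0% of 16618). None had an unadjusted p under 0.05 in either sex, and DESeq2 called 0 with 0 at an unadjusted p under 0.05. Pgr was the gene with the largest values in both sexes, 0.40 (SE 0.21) in males and 0.61 (SE 0.31) in females, higher in CONF. The male value was 0.20 without N2-2y, and the female value 0.39 without the CONSC pup 9-1x. Female CONF pups were at 3.09, 3.35, 5.10, 5.75 and 6.08 CPM and female CONSC pups at 1.26, 2.74, 3.21, 3.49 and 5.00 CPM.

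Further genes of the pathway were taken from 4 lists. In the 9 treatment comparisons none of their genes was called by edgeR, with medians of the log2 fold changes between -0.12 and 0.13 where that of all genes was within 0.01 of 0. Other receptors for steroids numbered 10, of which 8 were tested. Esr2, with a median of 4 counts per pup, was too low for the test. Pgrmc1 and Pgrmc2, membrane-associated progesterone receptor components, had the most counts (219 ± 13.3 and 64.7 ± 4.25 CPM in control males, SD, n = 9). Their log2 fold changes are part of these medians and did not pass.

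Between control males and females, 3 of the 8 tested receptors were called: Pgrmc2 was higher in males (0.17, SE 0.04, edgeR adjusted p = 0.00472), and the membrane progestin receptors Paqr6 (-0.62, SE 0.16, edgeR adjusted p = 0.00401) and Paqr8 (-0.89, SE 0.18, edgeR adjusted p = 0.000816) were lower. The median of the list was -0.03 and that of all genes 0.02.

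Of 34 enzymes and carriers of steroid synthesis and conversion, 30 were in the gene table and 18 were tested. Cyp11a1, which makes pregnenolone, and Cyp17a1, which makes androgens, had median counts of 2 and 1 per pup and were not tested. Hsd17b12 (98.2 ± 5.68 CPM in control males) and Hsd17b4 (63.9 ± 4.32 CPM), dehydrogenases with roles in fatty acid metabolism too, had the most counts. Of the 18, 6 were called between control males and females. Hsd17b12 was higher in males (0.21, SE 0.07, edgeR adjusted p = 0.0264). Lower in males were the steroid sulfatase Sts (-1.05, SE 0.11, edgeR adjusted p = 2.05e-07), the sulfotransferase Sult2b1 (-0.69, SE 0.11, edgeR adjusted p = 8.61e-05), the cholesterol carrier Stard3 (-0.32, SE 0.07, edgeR adjusted p = 0.0011), Fdxr (-0.23, SE 0.07, edgeR adjusted p = 0.0208), which feeds electrons to mitochondrial steroid enzymes, and Hsd17b8 (-0.18, SE 0.06, edgeR adjusted p = 0.0271). The list median was 0.03.

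Coregulators and targets of the estrogen-related receptors numbered 9, with 8 tested in controls. The coactivator Ppargc1b was lower in males (-0.58, SE 0.18, edgeR adjusted p = 0.0169). Idh3a and Cycs, mitochondrial genes with the most counts of this list, were at 188 ± 14.7 and 102 ± 11.2 CPM in control males and at 172 ± 7.63 and 97.1 ± 5.85 CPM in control females, and neither passed. The list median was 0.05 while Esrra itself was at -0.89. Among 5 genes known to be induced by estrogen receptors, Rara (-0.57, SE 0.09, edgeR adjusted p = 8e-05) and Cited1 (-0.52, SE 0.16, edgeR adjusted p = 0.0177) were lower in males, and Ctsd and Xbp1, with the most counts, did not pass. Over the 4 lists, 12 of 39 tested genes were called, beside 30.2% of all genes.

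**Figure D4:**
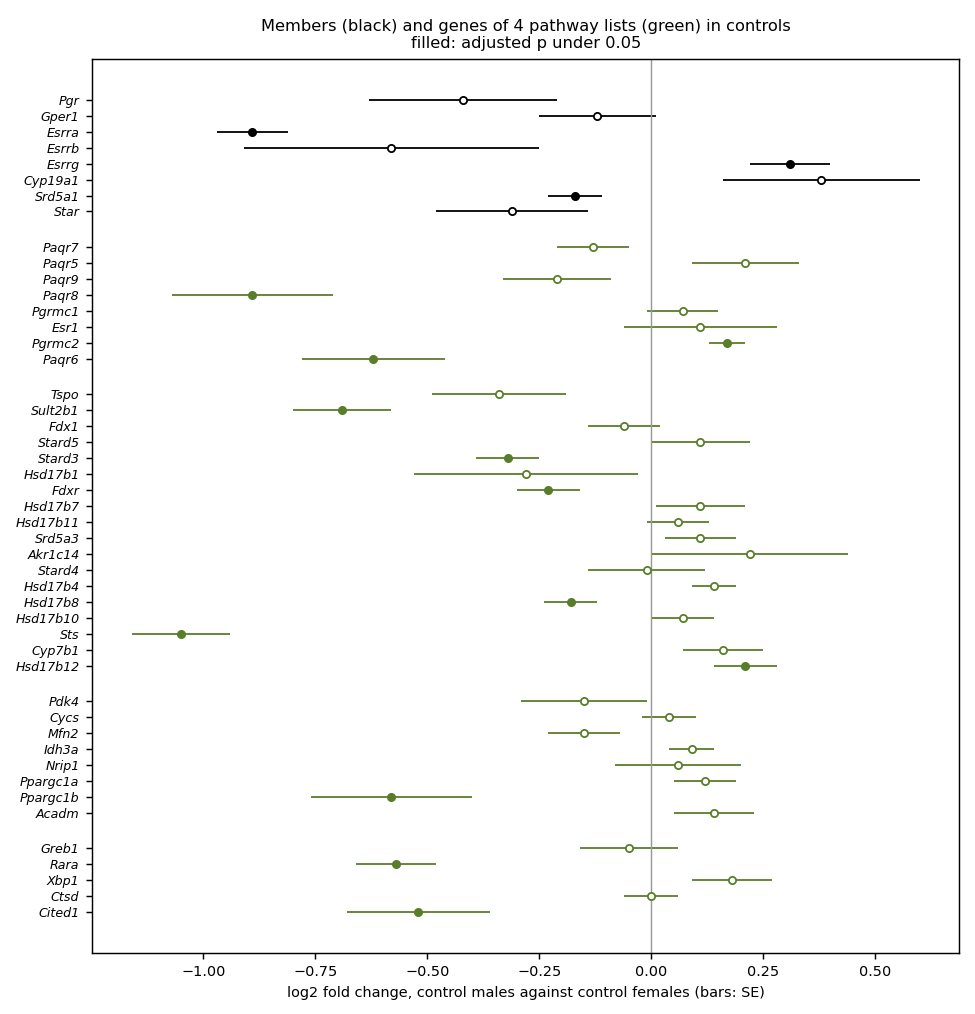
Log2 fold changes of control males against control females (x axis, bars are SE) for the 8 genes (black) and the tested genes of 4 pathway lists (green, in the order of receptors, synthesis enzymes, coregulators and targets of estrogen-related receptors, and genes induced by estrogen receptors). Filled points passed an adjusted p under 0.05 by edgeR, and Sts (-1.05) has the lowest value.

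Correlations across the 64 pups, given as descriptions, show which genes each of the 8 resembled. Among 16184 genes with at least 10 counts per pup on average, Esrra was most like Galk1 (Spearman 0.942), and Mib2 (0.940) was among the next. Deviations from the 13 group means gave 0.895 and 0.904 for these genes. Both also differed between the libraries of N2-2y, by 2.40-fold and 1.97-fold in the direction of Esrra. They also had lower means in control males, such as 23.7 ± 4.83 CPM against 46.2 ± 4.67 CPM for Galk1 (SD, n = 9 and 10). Esrra was also the gene of the 8 closest to the sum of endothelial markers, which is mostly Cldn5 (0.82 over all pups and 0.72 for deviations).

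Pgr was most like Nav3 (0.913), Phlpp2 (0.898) and Erc2 (0.897), with 0.908, 0.836 and 0.865 for deviations from group means. In the libraries of N2-2y these 3 genes were at ratios of 0.870, 0.802 and 0.815 of form B to form A, beside 0.903 for Pgr. Srd5a1 was most like Fam20c (0.812), Zdhhc22 (0.80) and Sncb (0.80). Esrrg was most like Tmx4 (0.758), Spock3 (0.749) and RGD1311744 (0.730).

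The 4 remaining genes had looser neighbours. Esrrb was most like Hcrtr1 (0.736), Vsig10l (0.704) and Pip5kl1 (0.691). Gper1 was most like Nacc2 (0.641), Celsr1 (0.616) and Sesn2 (0.613), Cyp19a1 like Abhd3 (0.623), Rnase4 (0.598) and Pdzd11 (0.586), and Star like Cntrob (0.502), RGD1308428 (0.480) and Wdr33 (0.477). All these libraries share the differences in depth, title form and tissue markers described above.

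Among the 28 pairs of the 8 genes, Esrra and Srd5a1 had the highest correlation (0.59, and 0.47 for deviations from group means), followed by Esrrb and Srd5a1 (0.53 and 0.51). Esrra and Esrrg were the most opposed (-0.44 and -0.32). Cyp19a1 correlated with Esrrg at 0.40 and with Pgr at -0.35. Set against markers of tissue, Srd5a1 ran with the thalamic sum (0.48, and 0.52 for deviations) and opposite to the striatal sum (-0.50 and -0.51). Esrrg ran opposite to the neocortical sum (-0.43 and -0.49), as did Cyp19a1 (-0.46 and -0.37) and Gper1 (-0.43 and -0.42).

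**Figure D5:**
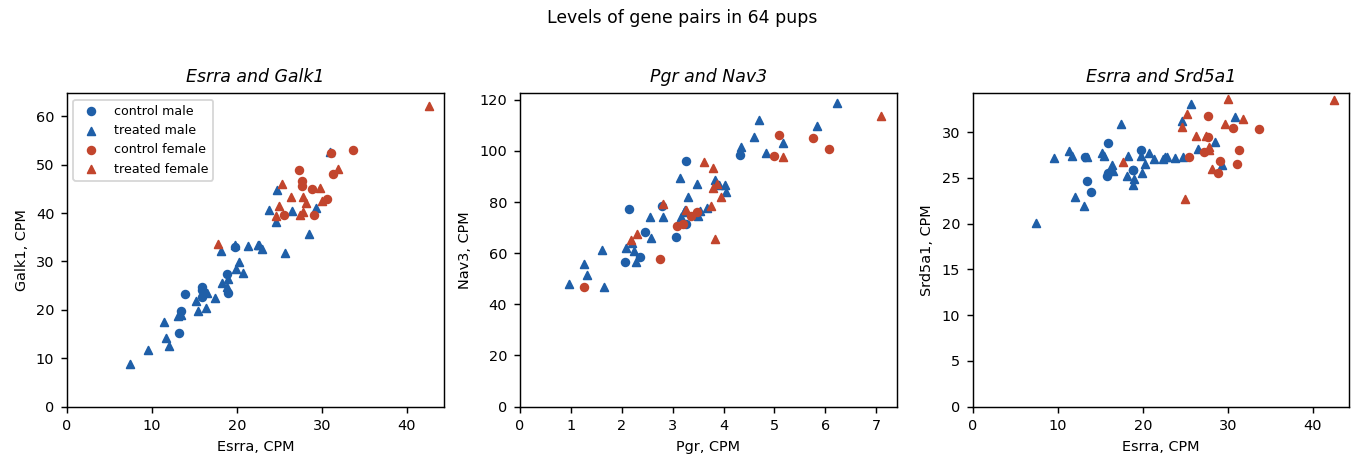
Counts per 1000000 counts (both axes, linear, from 0) of 3 pairs of genes in 64 pups: Esrra and Galk1 (Spearman 0.942), Pgr and Nav3 (0.913), and Esrra and Srd5a1 (0.59). Circles are control pups and triangles treated pups, in blue for males and red for females.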

How the data were processed

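Per the labels and the study's methods, the authors aligned reads of TruSeq stranded mRNA libraries to Rnor_6.0 with STAR and deposited raw counts per gene from featureCounts. Tool versions, strand setting and the treatment of reads with several matches are not given in the sources used here, so values of paralogs and overlapping genes are uncertain. Labels give NovaSeq single-end reads of 100 bases, the methods another instrument.

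From the deposited counts, the 2 libraries of a pup were summed and CPM computed. Genes were tested in edgeR 4.0.16 (R 4.3.3): TMM scaling, filterByExpr with the groups of a fit, a quasi-likelihood F test, Benjamini-Hochberg adjustment over all genes tested and a threshold of 0.05. An SE is the log2 fold change divided by the square root of F. Fits held high-dose males, low-dose males or females with their combined controls, males and females together with an interaction term, control males and females with the control route as covariate, and CONF with CONSC. Scripts were tested on simulated data. Litters that gave several pups of a group were not modelled in the main test, so p-values measure the spread between pups.

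Alternatives were DESeq2 1.42.0, DESeq2's size factors in edgeR, other filters, the time window, single libraries, 1 pup per litter and sex, the litter as a replicate block (limma 3.58.1), each pup left out, only controls given the same route, a fit of the 2 groups alone and the title form. The high-dose sex contrast and the fit without the pups with 2 libraries were added after the data were seen. The 8 genes, lists and tests were chosen with earlier results of these data known. Log2 fold changes were printed for a gene and comparison with an unadjusted p under 0.05, otherwise mostly as ranges. List genes were named if called in any comparison or among the 2 with most counts, and likeness used log2 CPM with a prior count of 0.5. No table of the study's own tests was used. Some items that these rules would name are not reported here.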

Additional observations from a re-analysis of the deposited data

Results flagged for a closer look

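Of 104 combinations of a gene and a group, 10 held a pup set apart from its group by Dixon's criterion at the 95% level, which chance alone meets in about 1 of 20 groups. Of these, 3 were values of 1 Aro5 male, 120-2y, which had the highest Esrrg (71.2 CPM, next 48.2), the highest Cyp19a1 (2.10 CPM, next 1.28) and the lowest Srd5a1 (22.9 CPM, next 27.0) of the 6 pups. Its summed striatal markers were at 728 CPM and those of the other 5 pups at 95.3 to 479 CPM. Its endothelial sum of 56.1 CPM lay below their 66.9 to 78.3 CPM. The part of these markers in the values was not tested.

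The other Aro5 values set apart were a male with 3.57 CPM of Gper1 (next 2.64) and a female, 120-3x, with 42.6 CPM of Esrra (next 30). This female came from the litter of the male above, and its endothelial sum was 115 CPM where the other 4 had 72.9 to 79.0 CPM.

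A BPA5 male, 81-1y, had 2.41 CPM of Esrrb (next 0.817), from 76 counts. Its summed thalamic markers were at 974 CPM (other 6 pups 269 to 883) and those of the oligodendrocyte lineage at 636 CPM (others 295 to 387). A CPF3 female, 43-3x, had 2.63 CPM of Star (next 0.935), from 59 counts. The lowest Esrrg value of a CONSC female was 27.6 CPM (next 39.2). For Srd5a1, a CONSC male was high at 28.8 CPM (next 25.8) and a CPF1 male low at 24.9 CPM (next 27.4).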

How the results depend on the processing

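In 17 of 18 comparisons (all but control males against females) 0 genes were called, and this held under every alternative run with 1 exception. Within the time window 1 gene was called in Aro5 males, Pgr. Leaving out 1 pup gave 0 in each of these 17. Between control males and females 3 genes were called, and 1 within the time window, 1 with the title form as a covariate and 1 in libraries of title form A only, Esrra in all 3. Leaving out 1 pup gave 2 to 4 there. Esrra was called in 19 of 19 such refits (-0.94 to -0.86), Esrrg in 19 of 19 and Srd5a1 in 14 of 19. Srd5a1 also missed the threshold without both pups that had 2 libraries (-0.16, edgeR adjusted p = 0.057). Without N2-2y it was at -0.15 (0.0637). Star in CPF3 females reversed from 0.61 to -0.09 in the time window, and, with 1 pup left out, ranged from -0.09 (without 43-3x) to 0.87. Of the 12 changes at an unadjusted p under 0.05 and the 3 sex differences called, no other one turned in sign. Smaller changes did, such as Pgr in BPA5 males (0.35 to -0.15) and CPF3 males (0.41 to -0.09) with the title form as a covariate. So did Esrra in Aro5 males (0.24 to -0.03) in that fit, which rests on 1 control male library of form B. The litter as a replicate block could be fitted for the interaction (correlation -0.006) and the sex comparison (-0.137), where it left 0, 0, 0 and 3 genes called. Pup names give the litter, which ties males and females of 18 litters. This pairing by litter changed no call. Esrrb, Star and Cyp19a1 had as few as 0, 5 and 6 counts in a pup, which limits what could be detected in them, and a filter of at least 10 counts in every pup removed 2 or 3 of the 8 genes.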
